A study of Mus musculus with 7 samples.

Results

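Long intergenic noncoding RNAs, or lincRNAs, are transcripts annotated between protein-coding genes and without a reading frame. The 151 lincRNAs described here were selected on their summed read count: every row of the kidney count table with the biotype lincRNA and 200 or more counts over the 7 libraries was taken, out of 5559 lincRNA rows and 54532 rows in all. Of the 5559 rows, 1974 had a count in any library. The biotype is that of the table; GENCODE M21 gives 6 of the 151 another type, among them AC078895.1 as protein-coding. The levels of the members are a description, and although the count rule does not use the treatment groups, the set was taken up with earlier results of these data known.

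All 7 libraries were made from total kidney RNA of male C57BL/6J mice aged 6 to 8 weeks, and all mice had received cisplatin, a platinum drug that forms DNA adducts and injures the renal tubule, at 20 mg/kg through the tail vein. The saline group had 4 libraries, saline 1 to 4, and the DXZ group had 3, DXZ 1 to 3. DXZ is named by these 3 letters in the labels and was injected through the tail vein at 40 mg/kg, 30 min before cisplatin and every 24 h afterwards for 3 days. There was no group without cisplatin, so the comparison is of cisplatin with DXZ against cisplatin with saline. Each library held between 16058157 and 18133736 counts, and the labels do not say that each came from a separate animal, so p-values measure the spread between these libraries only.

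Many lincRNAs act in the nucleus: some, such as Malat1 and Neat1, are built into nuclear bodies, some are the precursors from which small nucleolar RNAs (snoRNAs) or microRNAs are cut, and many are known only from an annotated transcript. Their levels tend to be low and tied to a cell type, so a whole-kidney library reports both the RNA per cell and the number of cells that make it. In bulk samples such as these, fewer cells of a type and less RNA per cell cannot be told apart.

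The members held 88.0% of all lincRNA counts. Their median summed count was 458, the highest was 44553 for Malat1, and the 10 members with the most counts held 61.3% of the members' counts. A name that only numbers a clone or predicted gene was carried by 74 members, and 49 had a RIKEN cDNA name. Their median length was 2300 bases (257 to 20771), 22 had a single exon in every transcript, and they lay on 20 chromosomes. At the count minimum, Gm16755 had 206 counts and Gm45495 and Gm26578 had 205 each, while Gm26880, 0610033M10Rik and Gm47882 had 199 each and stayed out.

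Between the treatments, 10 of the 151 lincRNAs were called at an adjusted p below 0.05 (edgeR's quasi-likelihood test with Benjamini-Hochberg adjustment over 15351 tested genes), which is 6.62%. Of these, 3 were higher with DXZ, namely 3300005D01Rik, Gm26917 and Snhg6, and 7 were lower, namely Gm13855, Gm12678, AI314278, Gm6135, Gm48558, C730027H18Rik and Gm20300. Over all tested genes 853 were called, or 5.56%, with 498 higher (3.24%) and 355 lower (2.31%). Among the 13188 tested genes with 200 or more counts, the share was 6.27%; their median level was 25.6 CPM (counts scaled to library size) against 3.86 CPM for the members, so they are not matched for depth. An unadjusted p below 0.05 was reached by 38 members (25.2%) and by 25.4% of all tested genes, and DESeq2 called 19 members (12.6%) and 13.8% of all tested genes. The median log2 fold change (DXZ minus saline) was -0.10 over the members and 0.01 over all tested genes. The members' median was -0.05 without DXZ 1, -0.07 without saline 4, -0.16 without DXZ 2 and -0.18 without DXZ 3. A positive value was found for 41.7% of the members and 51.3% of all tested genes. Other gene types with 200 or more counts gave 41.8% (antisense RNAs), 40.7% (bidirectional promoter RNAs), 35.9% (rows typed TEC) and 54.1% (processed transcripts). Protein-coding genes with that minimum gave 51%. The lowest and highest libraries of the groups did not overlap for 31 members (20.5%), 9 higher and 22 lower with DXZ, against 24.1% of all tested genes.

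**Figure D1:**
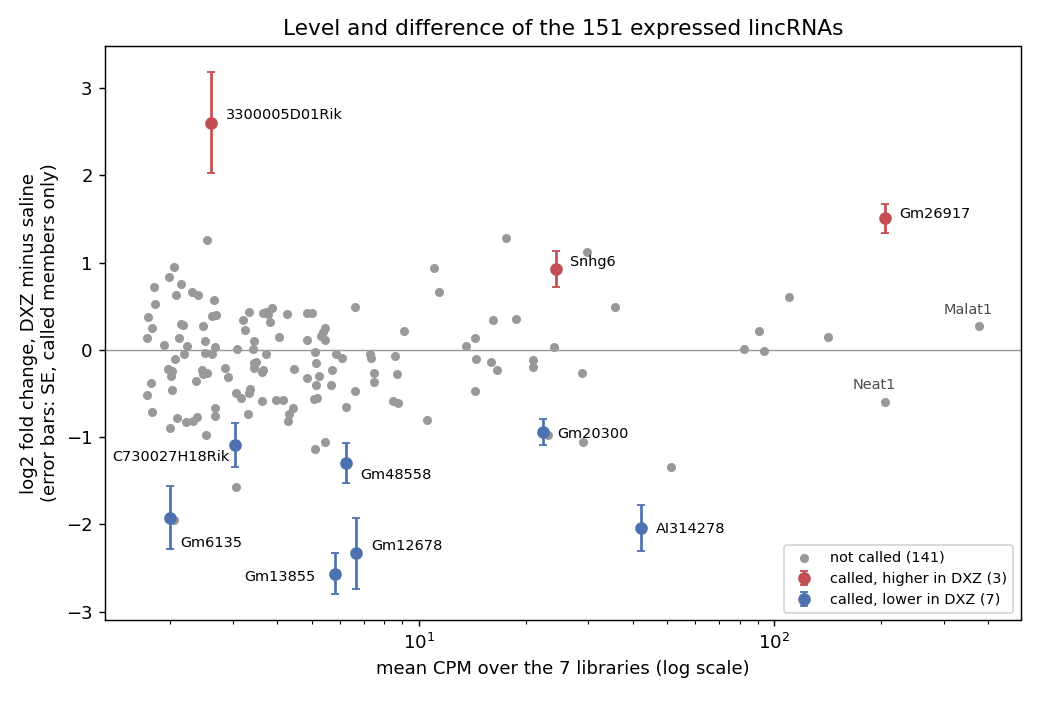
Each point is 1 of the 151 lincRNAs, with its mean level in CPM (log axis) and its log2 fold change between DXZ and saline. The 10 called lincRNAs are coloured with SE bars, and they span levels from Gm6135, near the count minimum, to Gm26917, among the 3 most counted members.

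The number of members called changed with every library removed. Taking away saline 1, 2, 3 or 4 left 6, 5, 5 or 0 calls, and taking away DXZ 1, 2 or 3 gave 19, 0 or 6, while calls over all genes were 374, 296, 426, 4, 1574, 1 and 141 in the same order. In the 2 fits with 0 calls, edgeR's unadjusted p was below 0.05 for 30 members (19.9%) without saline 4, against 20.2% of all genes tested there, and for 25 members (16.6%) without DXZ 2, against 20.3%. All 10 called lincRNAs kept their direction in the 7 fits that each lacked 1 library. Gm13855, AI314278 and Gm26917 stayed called in 5 of those 7, Gm20300 in 4, Gm12678 in 3, Gm48558 and Gm6135 in 2, and 3300005D01Rik, Snhg6 and C730027H18Rik in 1. DXZ 1 was the lowest of the 7 libraries for 42 members, more than any other library. Without DXZ 1 and saline 1 together, 17 members were called, 8 of them among the 10.

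**Figure D2:**
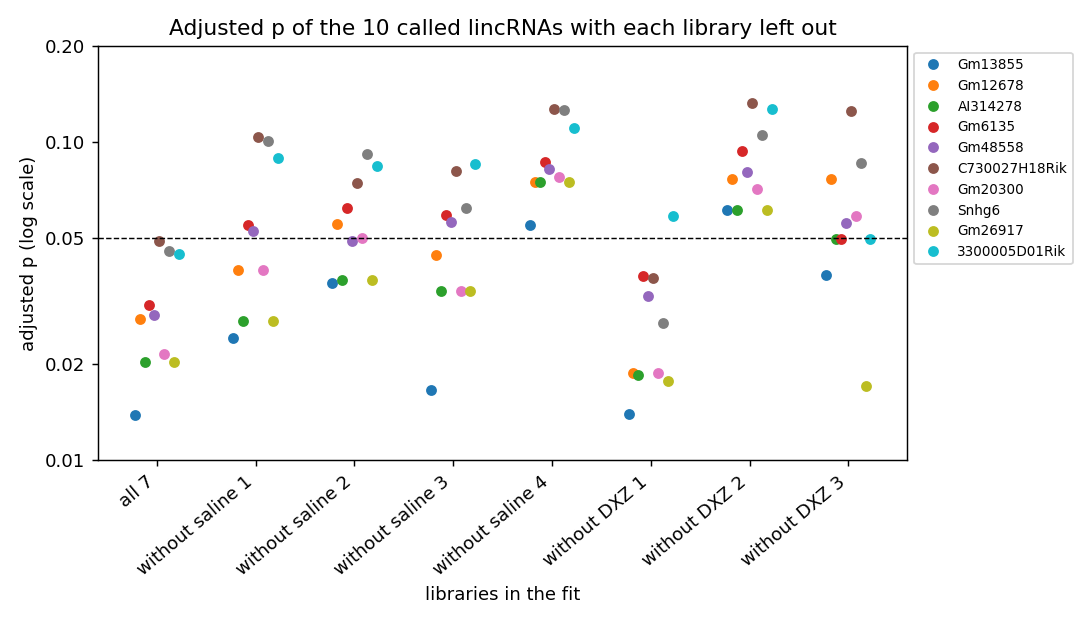
The adjusted p (log axis) of each of the 10 called lincRNAs is shown for the fit with all 7 libraries and for the 7 fits that lack 1 library. The dashed line marks 0.05, and no point lies below it without saline 4 or without DXZ 2.

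For 3 of the 10 called lincRNAs, RefSeq's promoter table has a window on GRCm38.p6 within 100 bases of the start in the count table. The windows run from 250 bases before to 50 after the transcript start. They are shown because they hold the DNA around the transcript starts of Gm20300, Gm12678 and 3300005D01Rik, most of it upstream, and because all 3 are poor in CpG. Capitals mark a match to a TATA box (TATAAA, here on the opposite strand as TTTATA) in Gm20300, and to an AP-1 site (TGANTCA) and an E-box (CACGTG) in 3300005D01Rik. Gm12678 has none of the 6 motifs searched on both strands.
Gm20300 (chr10:30606585-30606884, minus strand): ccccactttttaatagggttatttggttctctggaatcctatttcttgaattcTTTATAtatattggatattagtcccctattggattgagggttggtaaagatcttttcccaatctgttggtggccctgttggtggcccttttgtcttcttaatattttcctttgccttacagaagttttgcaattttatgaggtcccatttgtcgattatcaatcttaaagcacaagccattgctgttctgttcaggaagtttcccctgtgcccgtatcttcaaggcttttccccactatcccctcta
Gm12678 (chr4:44943483-44943782, plus strand): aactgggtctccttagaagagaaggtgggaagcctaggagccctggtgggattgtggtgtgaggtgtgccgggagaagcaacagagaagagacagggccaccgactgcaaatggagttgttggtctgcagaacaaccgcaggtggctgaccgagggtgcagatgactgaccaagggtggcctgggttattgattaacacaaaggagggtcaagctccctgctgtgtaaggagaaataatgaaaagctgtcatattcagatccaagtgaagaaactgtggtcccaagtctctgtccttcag
3300005D01Rik (chr17:5798407-5798706, plus strand): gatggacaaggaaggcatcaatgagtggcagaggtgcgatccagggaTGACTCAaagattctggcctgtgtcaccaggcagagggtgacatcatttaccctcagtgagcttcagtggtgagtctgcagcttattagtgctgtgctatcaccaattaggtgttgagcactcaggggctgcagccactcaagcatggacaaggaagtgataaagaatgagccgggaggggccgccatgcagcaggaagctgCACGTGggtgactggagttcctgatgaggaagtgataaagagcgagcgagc

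The observed-to-expected CpG ratio, which compares the count of CpG with that expected from the window's C and G, was 0.17 for Gm20300, 0.21 for Gm12678 and 0.30 for 3300005D01Rik. In all, 87 members matched a RefSeq promoter by symbol and 65 lay within 100 bases of the table's start. The median ratio of these 65 was 0.599, against 0.384 over all 32851 promoters. Of the 33 members at or above the median ratio, 0 were called in edgeR, 3 had an unadjusted p below 0.05 and DESeq2 called 0. Of the 32 below it, 3 were called, 14 had such a p and DESeq2 called 7. Over all tested genes these shares were 5.56%, 25.4% and 13.8%. The difference between these sets was not tested. An AP-1 site was present in 6 of the 65 (9.23%) and in 7.81% of all promoters, a TATA box in 9 (13.8%) and in 13.6%, and an E-box in 9 (13.8%) and in 7.15%. The other motifs searched were an HNF4 core (CAAAGTCCA, 0 of 65 and 0.475% of all promoters), an antioxidant response core (TGACNNNGC, 7 of 65 and 12.4%) and a cyclic AMP response element (TGACGTCA, 3 of 65 and 1.79%). A match is a description of these letters and not a bound site.

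Of the lincRNAs that fell with DXZ, Gm13855 had the lowest p. It is a transcript of 2 exons at chr6:34179232-34186392 on the plus strand (GRCm38). Its level in the saline libraries was 11.2, 9.51, 7.21 and 8.17 CPM, and in the DXZ libraries it was 1.75, 1.45 and 1.36 CPM. The groups did not overlap, and the 3 DXZ values lay close together. This is a 5.92-fold lower level, with a log2 fold change of -2.57 ± 0.24 (SE) and an adjusted p of 0.0138 (edgeR).

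Gm12678 has 2 exons and lies at chr4:44943753-44948330 on the plus strand. Its CPM was 15.5, 9.93, 8.06 and 7.17 with saline and 3.04, 1.09 and 1.89 with DXZ. Saline 1 was the highest library, and the groups did not overlap. The log2 fold change was -2.33 ± 0.41 (SE), a 5.04-fold lower level (adjusted p 0.0278, edgeR).

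AI314278, at chr7:89426306-89441928 on the plus strand, was the most abundant of the lincRNAs that fell, and ranked 10th by count among the members. The saline libraries held 85.8, 52.0, 53.2 and 58.8 CPM of it, and the DXZ libraries 16.8, 9.98 and 18.8 CPM. Saline 1 stood above the other saline libraries, and the highest DXZ library was far under the lowest saline one. Its level was 4.11-fold lower with DXZ (log2 fold change -2.04 ± 0.27 SE, adjusted p 0.0204, edgeR).

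Gm6135 is a short transcript of 372 bases at chr3:133789515-133791504 on the minus strand, with 236 counts in all. It was at 2.69, 2.79, 3.54 and 2.64 CPM with saline and at 0.56, 0.54 and 1.18 CPM with DXZ. Saline 3 was the highest and DXZ 3 the highest of its group, with no overlap. The level was 3.80-fold lower (log2 fold change -1.93 ± 0.36 SE, adjusted p 0.0306, edgeR).

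The other 3 lincRNAs that fell had smaller differences. Gm48558 (chr12:15842758-15850625, minus strand) was at 10.3, 6.84, 8.74 and 7.70 CPM with saline and at 3.55, 2.60 and 4.07 CPM with DXZ, a 2.46-fold lower level (adjusted p 0.0285, edgeR). C730027H18Rik (chr10:71168737-71182040, minus strand) went from 4.59, 3.21, 3.60 and 4.35 CPM to 2.25, 1.57 and 1.71 CPM, which is 2.13-fold lower (adjusted p 0.0489, edgeR). Gm20300, a single-exon transcript at chr10:30603195-30606634 on the minus strand, was at 29.5, 30.0, 22.7 and 30.6 CPM and at 16.5, 14.8 and 12.6 CPM, or 1.93-fold lower (adjusted p 0.0215, edgeR). In each of these, every DXZ library was under every saline library.

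Of the 3 lincRNAs that rose, 3300005D01Rik had the largest difference and the widest spread. It has 3 exons at chr17:5798657-5803240 on the plus strand and 312 counts in all. It was low with saline, at 0.40, 1.01, 0.79 and 1.06 CPM, and reached 7.04, 6.59 and 1.36 CPM with DXZ. DXZ 3 was only a little above the highest saline library, so the rise rests on DXZ 1 and DXZ 2. The fitted log2 fold change was 2.61 ± 0.58 (SE), or 6.09-fold higher, with an adjusted p of 0.0445 (edgeR), which was 0.0584 without DXZ 1 and 0.126 without DXZ 2.

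Snhg6, the small nucleolar RNA host gene 6, lies at chr1:9941959-9944118 on the minus strand. With saline it was at 14.7, 17.9, 20.5 and 16.9 CPM, and with DXZ at 25.8, 45.4 and 28.6 CPM. All 3 DXZ libraries were above the saline range, with DXZ 2 the highest. It rose 1.90-fold (log2 fold change 0.92 ± 0.21 SE, adjusted p 0.0454, edgeR), and by 0.62 on the log2 scale without DXZ 2 (adjusted p 0.105).

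**Figure D3:**
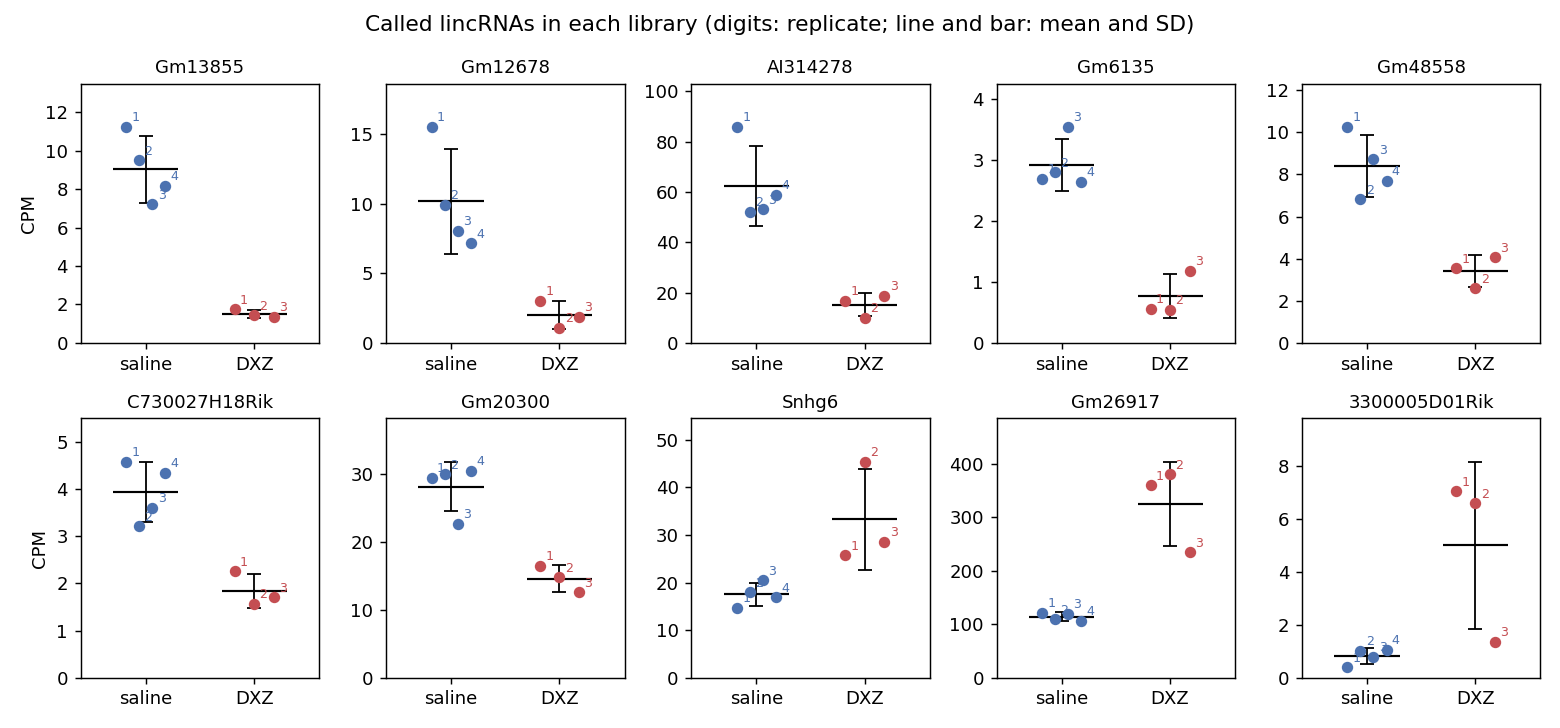
The CPM of each of the 10 called lincRNAs is plotted for the 4 saline and 3 DXZ libraries on a linear axis from 0, with replicate digits beside the points and the mean and SD as a line and bar. No panel has overlapping groups, and DXZ 3 of 3300005D01Rik is the point nearest to the other group.

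Gm26917 was the third most counted member (24375 counts) and, per length, the most abundant: its mean was 61.0 FPKM (fragments scaled to transcript length and library size), above Malat1 at 53.7 FPKM. It lies at chr17:39843013-39846341 on the plus strand. Its CPM was 122, 109, 120 and 106 with saline and 360, 380 and 234 with DXZ. The saline values were tight and the DXZ values lay well above them, with DXZ 3 the lowest of its group. The log2 fold change was 1.51 ± 0.17 (SE), or 2.85-fold higher, with an adjusted p of 0.0204 (edgeR).

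The position of Gm26917 bears on how its counts can be read. The row CT010467.1, annotated as ribosomal RNA on the minus strand (chr17:39846353-39848827), starts 12 bases after its end and held 104067 counts, which is 27.5% of the counts of all nuclear and mitochondrial ribosomal RNA rows. Ribosomal RNA is the most abundant RNA of a cell and is usually removed or left unread when libraries are made. CT010467.1 was at 441, 815, 1423 and 1493 CPM with saline and at 681, 810 and 502 CPM with DXZ. Its groups overlapped, and it was highest in saline 3 and 4. Whether reads of ribosomal RNA reach the Gm26917 row was not tested. The lincRNA rows Gm42418 and AY036118, which lie within CT010467.1, had 0 counts in all 7 libraries and are no members.

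Only 1 member overlapped a ribosomal RNA row. Gm1976 (chr17:94759944-94834799, minus strand) spans Gm23964, a row of 107 bases on the other strand with 4 counts in all. It was at 1.94 ± 0.23 CPM (SD, n = 4) with saline and 3.01 ± 0.97 CPM (SD, n = 3) with DXZ (log2 fold change 0.63 ± 0.29 SE, adjusted p 0.226, edgeR). All nuclear and mitochondrial ribosomal RNA rows together took 0.210 to 0.394% of the counts with saline and 0.244 to 0.407% with DXZ. These ranges overlapped. Of the 377763 counts in these rows, the mitochondrial rows mt-Rnr1 and mt-Rnr2 held 127107 and 146513, so the total is mostly mitochondrial.

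The difference in the share of counts that came from the lincRNAs rested on Gm26917. The 151 members took 0.224, 0.216, 0.221 and 0.219% of all counts with saline, and 0.233, 0.240 and 0.242% with DXZ. The groups did not overlap, with means of 0.220 ± 0.0033% (SD, n = 4) and 0.238 ± 0.0049% (SD, n = 3). Without Gm26917 and Gm1976 the means were 0.209 ± 0.0030% and 0.205 ± 0.013%, and the ranges overlapped. Leaving out Gm1976 alone kept the difference at 0.0180 percentage points, against 0.0181 with all members.

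**Figure D4:**
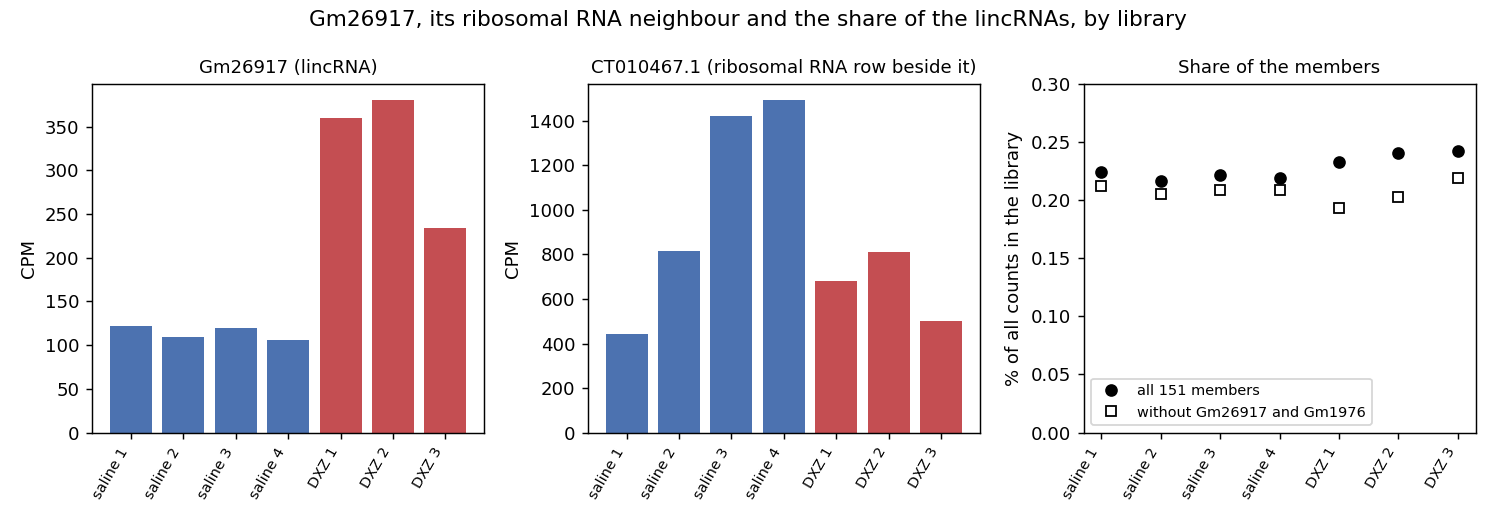
The left and middle panels give the CPM of Gm26917 and of the ribosomal RNA row CT010467.1 in each library (blue saline, red DXZ), and the right panel gives the members' share of all counts with and without Gm26917 and Gm1976. Gm26917 separates the groups, CT010467.1 does not, and the share separates them only with Gm26917 included.

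Of the 10 members with the highest mean CPM, edgeR called Gm26917 and AI314278, and DESeq2 called these and D630029K05Rik. Over all tested genes edgeR called 5.56% and DESeq2 13.8%, and a difference from these shares was not tested. Malat1, an RNA of nuclear speckles at chr19:5795690-5802672, was at 358, 274, 393 and 358 CPM with saline and at 223, 498 and 529 CPM with DXZ, so DXZ 1 was the lowest library and the other DXZ libraries the highest. Its log2 fold change was 0.27 ± 0.28 (SE, adjusted p 0.599, edgeR), and 0.57 without DXZ 1 (adjusted p 0.0590), 0.12 without DXZ 2 and 0.06 without DXZ 3. Neat1, the scaffold of paraspeckles and its neighbour on chromosome 19, was at 264, 253, 172 and 273 CPM and at 224, 94.9 and 157 CPM (log2 fold change -0.60 ± 0.29 SE, adjusted p 0.233, edgeR), with -0.93 without DXZ 1 (adjusted p 0.0602) and -0.35 without DXZ 2. Both had overlapping groups.

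2900097C17Rik, the mouse Norad, which binds Pumilio proteins, was at 136 ± 9.92 CPM (SD, n = 4) with saline and 151 ± 21.1 CPM (SD, n = 3) with DXZ. 1700020I14Rik was at 94.3 ± 1.64 CPM with saline and 93.2 ± 3.46 CPM with DXZ (log2 fold change -0.02 ± 0.08 SE). Tmem250-ps was at 84.8 ± 4.75 and 98.2 ± 2.0 CPM, a difference that did not overlap between groups and was not called (log2 fold change 0.21 ± 0.08 SE, adjusted p 0.155, edgeR). 1810058I24Rik was at 82.0 ± 9.90 and 82.7 ± 14.9 CPM.

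D630029K05Rik and Gm42047, also among the 10 most abundant members, had wider differences that edgeR did not call with all 7 libraries. D630029K05Rik was at 116, 73.1, 42.5 and 46.4 CPM with saline and at 32.6, 22.4 and 27.0 CPM with DXZ. Its groups did not overlap, and saline 1 stood above the rest of its group (log2 fold change -1.34 ± 0.35 SE, adjusted p 0.0635, edgeR). The adjusted p was 0.0017 in DESeq2, 0.0253 in edgeR without the count filter and 0.0398 without saline 1 and DXZ 1 together. Gm42047 was at 89.7, 69.0, 83.1 and 119 CPM and at 68.2, 152 and 190 CPM (log2 fold change 0.60 ± 0.32 SE, adjusted p 0.289, edgeR), with DXZ 1 the lowest library of all. Without DXZ 1 it was called, at 0.92 (adjusted p 0.0381), and without DXZ 3 it was at 0.29.

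RNAs that carry snoRNAs in their introns are spliced, the snoRNA is trimmed from the intron, and the exons are mostly left to decay. Of a list of 21 such hosts, 19 were in the table under any biotype and 17 were tested: 1 was higher with DXZ (Snhg6), 0 were lower, and 12 lay above 0; the median log2 fold change of the 17 was 0.34, against 0.01 over all tested genes. An unadjusted p below 0.05 was reached by 9 of the 17, and DESeq2 called 6 of them, all higher with DXZ: Snhg1, Snhg5, Snhg6, Snhg15, Snhg20 and Zfas1. Over all tested genes 25.4% had such a p and DESeq2 called 13.8%. The list was drawn up with earlier results of these data known, so its counts and median are no independent evidence of a direction. The list holds 5 members. Snhg6 and Snhg20, which were higher with DXZ, and Snhg18, which was lower, had groups without overlap. Of all tested genes, 24.1% also had groups without overlap. Snhg20 was at 7.74, 7.79, 8.98 and 7.23 CPM with saline and at 10.4, 13.7 and 21.4 CPM with DXZ. Its log2 fold change was 0.93 ± 0.24 (SE, adjusted p 0.0599, edgeR). The edgeR adjusted p was 0.0230 without DXZ 1 and 0.0467 without the count filter. Epb41l4aos was at 10.8, 6.90, 9.41 and 9.46 CPM and at 8.96, 17.3 and 17.1 CPM (0.66 ± 0.26 SE, adjusted p 0.154), with DXZ 1 inside the saline range, and without DXZ 1 it was called at 0.91 (adjusted p 0.0318). Snhg12 was at 8.49 ± 1.36 and 9.86 ± 2.52 CPM. Snhg18 ran the other way, at 28.7, 35.7, 29.6 and 30.0 CPM and at 24.8, 26.1 and 26.6 CPM (log2 fold change -0.26 ± 0.11 SE, adjusted p 0.166).

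Hosts outside the lincRNA biotype differed among themselves, and edgeR called none of them. Snhg1 was at a log2 fold change of 0.66 (adjusted p 0.0765) and Snhg15 at 0.70 (adjusted p 0.0791). By contrast, Snhg4, Snhg11, Snhg14 and Snhg17 were at -0.036, -0.052, 0.0035 and -0.046, and Snhg8 was at 0.32. The mature snoRNAs are short and were hardly counted: Snord87, inside Snhg6, had 1 count in all, and Snord123, inside Snhg18, had 24. The reads of Snhg6 therefore report the host transcript and not its snoRNA.

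MicroRNAs are cut as hairpins from longer RNAs, and 7 members contain a microRNA row within their span and on their strand, of which 0 were called in edgeR, 2 had an unadjusted p below 0.05 and DESeq2 called 1, where the shares over all tested genes were 5.56%, 25.4% and 13.8%. Mir17hg, the host of the miR-17 to miR-92a cluster at chr14:115042879-115046727, was at 4.07, 2.50, 3.18 and 3.47 CPM with saline and at 2.99, 5.02 and 5.79 CPM with DXZ (log2 fold change 0.47 ± 0.29 SE, adjusted p 0.346). The 6 hairpin rows inside it had 0 counts in all 7 libraries, so the host's value gives no level for the mature RNAs. Their main mature forms from RefSeq, with bases 2 to 8 (the seed that pairs with target RNAs) in capitals, fall into 4 seed groups, with miR-17-5p and miR-20a-5p sharing one and miR-19a-3p and miR-19b-3p sharing another.
mmu-miR-17-5p: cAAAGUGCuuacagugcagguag
mmu-miR-20a-5p: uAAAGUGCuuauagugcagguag
mmu-miR-18a-5p: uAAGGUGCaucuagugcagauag
mmu-miR-19a-3p: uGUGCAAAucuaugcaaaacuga
mmu-miR-19b-3p: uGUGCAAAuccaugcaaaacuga
mmu-miR-92a-3p: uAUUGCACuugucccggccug

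Ftx, a host of microRNAs on the X chromosome and a regulator of Xist, was at 6.54, 3.87, 3.12 and 3.35 CPM with saline and at 2.87, 3.08 and 2.48 CPM with DXZ. Its groups lay side by side without overlap, and saline 1 was the highest library (log2 fold change -0.58 ± 0.31 SE, adjusted p 0.280, edgeR). Pvt1, which lies 47612 bases from Myc and is known as a p53 target and a neighbour of that oncogene, was at 3.22 ± 0.56 and 4.36 ± 0.94 CPM (0.44 ± 0.25 SE, adjusted p 0.310). AW112010, an RNA induced in myeloid cells by microbial products and interferon, was at 2.87 ± 1.15 and 3.63 ± 0.79 CPM (adjusted p 0.590).

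In the other lists of known noncoding RNAs edgeR called 0 genes, and DESeq2 called 1, Hotairm1. An unadjusted p below 0.05 (edgeR) was reached by 1 gene each among microRNA hosts, nuclear RNAs and p53 RNAs. The shares over all tested genes were 5.56% called in edgeR, 13.8% called in DESeq2 and 25.4% with such a p. In lists this small, 0 calls do not show an absence of differences. Among microRNA hosts 9 were tested, with a median log2 fold change of 0.27; among nuclear and chromatin-acting RNAs 13, with a median of 0.11. Among imprinted-locus RNAs 5 were tested (median -0.25), among p53 and DNA damage RNAs 7 (0.15) and among inflammation and interferon RNAs 5 (0.34). The lists share genes, for instance Neat1 and Pvt1. The differences closest to a call in these lists were those of Hotairm1, annotated as antisense (0.96, adjusted p 0.0792, edgeR), and Mir22hg (0.82, adjusted p 0.126).

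The word intergenic does not hold for every member. The span of 13 members overlaps a coding row on the opposite strand and that of 6 on the same strand, 29 start head to head with a coding gene within 5000 bases, 17 are near one on the same strand and 12 end tail to tail, and 74 lie more than 5000 bases from any. Of the 10 called lincRNAs, 7 were among these 74, 1 was head to head, 1 near on the same strand and 1 overlapped on the opposite strand. The share called was 6.62% over all members and 5.56% over all tested genes, and a difference between positions was not tested. Exon bases of 12 members are also exon bases of a coding gene. The sources used here do not give the strand setting of the counting, so reads of overlapping genes on opposite strands cannot be told apart.

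The overlapping member with the most counts after Gm42047 and D630029K05Rik was Gm10804, which runs against Cd82, a tetraspanin of the cell surface, over part of its span. Gm10804 was at 45.3, 31.5, 36.3 and 35.5 CPM with saline and at 10.5, 16.3 and 26.7 CPM with DXZ (log2 fold change -1.06 ± 0.29 SE, adjusted p 0.0698, edgeR); DESeq2 called it, as did edgeR without DXZ 3 (-1.47, adjusted p 0.0494) and without the count filter (adjusted p 0.0386). Cd82 was at 79.6, 120, 117 and 136 CPM and at 236, 179 and 205 CPM, and rose (log2 fold change 0.87 ± 0.18 SE, adjusted p 0.0406). The values of both genes thus ran in opposite directions, without overlap in either. Gm10804 shares no exon base with Cd82.

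Snhg6 shares 127 exon bases with Mcmdc2 on the other strand, which had 18 counts against 2874 for Snhg6. 1300002E11Rik shares 227 exon bases with Map3k13, a kinase gene on the same strand, and was at 14.5 ± 0.80 and 18.4 ± 6.91 CPM (log2 fold change 0.35 ± 0.25 SE, adjusted p 0.418, edgeR), while Map3k13 was at 0.08 on that scale. Without DXZ 1 it was called, at 0.63 (adjusted p 0.0290), and without DXZ 2 it was at 0.11. Lppos shares 82 bases with Lpp, and AC165953.2 shares 114 with Scaf8. 2700046G09Rik shares 10 with Sgms1, a sphingomyelin synthase, and was at 3.77 ± 0.16 and 3.64 ± 0.38 CPM. With all 7 libraries, neither edgeR nor DESeq2 called any of these 4. At the count minimum, Gm16755 shares 200 bases with Mrpl12 and Gm26578 shares 482 with Nrg1, on the opposite strand in both cases.

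Among members with a tested nearest coding gene (127), the lincRNA and the gene had the same sign in 79 pairs (62.2%), with Pearson's r of 0.23 and Spearman's rho of 0.27 across the pairs of log2 fold changes. These are weak relations over genes measured in the same 7 libraries, and genes are not independent replicates. In this set 8 of the neighbours were called (6.30%), 6 higher with DXZ and 2 lower, against 5.56% of all tested genes. Gm20300 was the only called lincRNA whose neighbour was called, and they differed in direction. Hint3, a nucleotide hydrolase gene 1507 bases upstream on the same strand, was at 22.8, 24.8, 27.3 and 23.0 CPM with saline and at 36.0, 38.9 and 43.2 CPM with DXZ (log2 fold change 0.68 ± 0.11 SE, adjusted p 0.0215, edgeR), whereas Gm20300 fell in the same libraries.

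**Figure D5:**
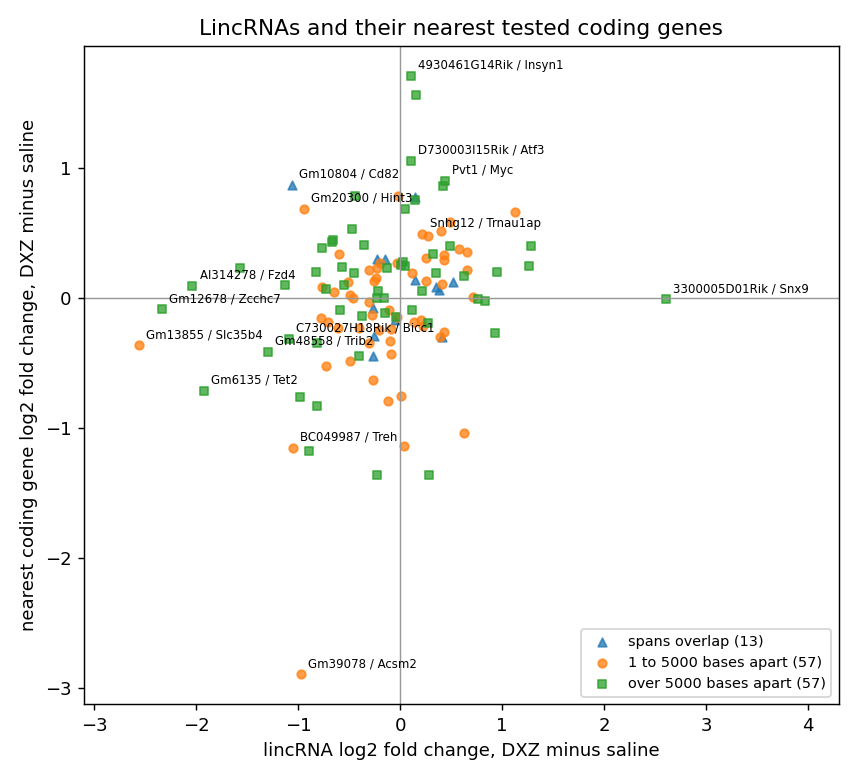
Each of 127 lincRNAs is placed by its log2 fold change (x axis) and that of its nearest tested coding gene (y axis), with marker shapes for overlap and distance. Pairs with a called lincRNA or a called neighbour are named, and Gm20300 with Hint3 lies in the upper left, where the lincRNA is lower and the gene higher.

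The neighbours of 7 other called lincRNAs did not pass the test, and those of Snhg6 and Gm26917 had too few counts to be tested. Slc35b4, a nucleotide sugar transporter gene 2121 bases from Gm13855 and transcribed away from it, had the lowest adjusted p of these (log2 fold change -0.37 ± 0.10 SE, adjusted p 0.0669, edgeR) against -2.57 for the lincRNA. Fzd4, a Wnt receptor gene 13172 bases from AI314278, was at 0.09 ± 0.13 (SE), and Zcchc7, 11538 bases from Gm12678, at -0.09 ± 0.19. Snx9, a sorting nexin gene 38089 bases from 3300005D01Rik, was at -0.01 ± 0.12. Trib2, a pseudokinase gene 25836 bases from Gm48558, was at -0.42 ± 0.16, and Bicc1, an RNA-binding protein gene mutated in cystic kidney disease and 9037 bases from C730027H18Rik, at -0.32 ± 0.16. Tet2, 244376 bases from Gm6135, was at -0.72 ± 0.27. Esp38, the nearest coding row to Gm26917 at 104179 bases, had 0 counts.

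Besides Hint3 and Cd82, 6 neighbours were called. Myc (log2 fold change 0.90, adjusted p 0.0492) rose beside Pvt1, and Atf3, a stress-induced transcription factor gene (1.05, adjusted p 0.0238), rose 6415 bases from D730003I15Rik, which was at 0.10. Trnau1ap (0.49, adjusted p 0.0320) rose next to Snhg12 and Insyn1 (1.70, adjusted p 0.0212) near 4930461G14Rik, which was at 0.11. Acsm2, an acyl-CoA synthetase gene of the proximal tubule, fell by 2.90 on the log2 scale (adjusted p 0.0439, edgeR), and Gm39078, which ends 150 bases from it, was at -0.97 ± 0.38 (adjusted p 0.149). Treh, which encodes the brush border enzyme trehalase, fell by 1.16 (adjusted p 0.0425), and BC049987, 995 bases from it head to head, was at -1.06 (adjusted p 0.0924).

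Some members have a near copy at another locus, with 95% or more identity over 100 or more bases and 50% or more of a transcript. There were 6, of which 0 were called in edgeR or in DESeq2 and 0 had an unadjusted p below 0.05. For all tested genes these shares were 5.56%, 13.8% and 25.4%, so 6 members are too few to set them apart. Gm10076, a transcript of 384 bases, is 99.5% identical over 383 of them to Rpl41, the gene of a ribosomal protein with 83941 counts. This lincRNA, named here after its values were seen, was at 14.2, 6.66, 3.79 and 19.04 CPM with saline and at 65.0, 9.86 and 4.61 CPM with DXZ, so a single library, DXZ 1, held most of its counts (log2 fold change 1.28 ± 0.87 SE, adjusted p 0.396, edgeR). Its coefficient of variation (SD over mean) in the DXZ group, 126%, was the highest of all members. Rpl41 was at 592 ± 69.7 CPM (SD, n = 4) with saline and 861 ± 90.2 CPM (SD, n = 3) with DXZ. Counts of such copies depend on how reads with several positions were placed, which the sources used here do not give.

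The median coefficient of variation was 21.0% in the saline group and 26.8% in the DXZ group, against 12.2% and 15.1% for the 13188 tested genes with 200 or more counts, a set with a higher median level, as given above. Other gene types with 200 or more counts gave shares called of 6.36% for protein-coding genes (784 of 12333) and 6.36% for antisense RNAs (7 of 110). The shares were 2.35% for processed transcripts (2 of 85), 2.56% for rows typed TEC (1 of 39) and 0% for bidirectional promoter RNAs (0 of 27). Over all tested genes the share was 5.56%. Below the count minimum, 5 of 188 tested lincRNAs were called (2.66%).

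Some markers of kidney cell types were also called between the groups, but most of the summed levels overlapped, that of the proximal tubule included. The share called over all tested genes was 5.56% (edgeR). The summed CPM of 6 proximal tubule genes was 24890, 10514, 5240 and 5722 with saline and 5434, 2823 and 4299 with DXZ, and 4 of the 6 were called lower. Both markers of the distal convoluted tubule were called lower (190 to 264 against 60.7 to 82.9 CPM), and 2 of 4 tubule injury genes were called higher (419 to 2009 against 2609 to 5016 CPM). Among thick ascending limb genes 1 of 3 was called lower, and 1 of 3 principal cell genes and 1 of 4 macrophage genes were called higher. None was called among intercalated cell, podocyte, endothelium, fibroblast and mural, neutrophil, adipocyte and adrenal cortex genes. The endothelial sum was 263 CPM in DXZ 1 against 91.1 and 58.0 in DXZ 2 and 3, and that of fibroblast and mural genes was 531 against 63.5 and 38.3, while the adipocyte sum was 197 in saline 1 and 2.70 to 47.5 in the other saline libraries. Cyp11b1, of the adrenal cortex, was at 0 in every library, and T and B cell markers summed to at most 1.61 CPM. The part of these cell types in the lincRNA differences was not tested.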

How the data were processed

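RNA sequencing of mouse kidney gave 1 count table for 7 libraries (4 saline, 3 DXZ). The counts per gene and the FPKM values were made by the authors and deposited together with gene length in bases, another value per row used for FPKM. The submitters' processing notes name HISAT2, StringTie and mm9, without their roles, but 53585 of 54495 shared gene identifiers (98.3%) have the start and end of GENCODE M21, so coordinates are given as GRCm38. Trizol extraction of total RNA is stated per the labels' protocols. The counting program, the strand setting and any removal of ribosomal RNA were not found in the labels or the file header, so they are not given here. The deposited FPKM equal count over length within each library (largest deviation 0.000497%).

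All 54532 rows were fitted with edgeR 4.0.16 (R 4.3.3; filterByExpr, TMM, quasi-likelihood F test), leaving 15351 tested genes, including all 151 members; a member passed this filter on its counts in either group. The script was tested on simulated data. CPM use TMM-adjusted library sizes. The SE of a log2 fold change is its size divided by the square root of F. Alternatives used DESeq2 1.42.0 and limma 3.58.1. Near copies were found with BLAST 2.17.0 among M21 transcripts. Named were the called members, the 10 most abundant, those in the noncoding RNA lists, those at ribosomal RNA rows, the 8 most counted that overlap a coding row, neighbours of called members, and the 3 on each side of the count minimum. The members and lists were chosen with earlier results of these data known. Totals of 16058157 to 18133736 counts per library leave the members near the minimum at a mean level under 3 CPM.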

Additional observations from a re-analysis of the deposited data

Results flagged for a closer look

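Among the 35 named lincRNAs, the 4 saline libraries were searched for 1 library far from the rest (a gap to the nearest library that exceeds Dixon's critical value as a share of the group's range), and 2 were found. Chance gives about 1 in 20 such groups. Gm20300 was at 22.73 CPM in saline 3, below the nearest library at 29.52 CPM. Its log2 fold change without saline 3 was -1.04 (adjusted p 0.0341, edgeR), against -0.95 with all libraries. Gm6135 was at 3.543 CPM in saline 3, above the nearest library at 2.795 CPM. Without that library its log2 fold change was -1.82 (adjusted p 0.0590, edgeR), which is no longer a call.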

How the results depend on the processing

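Calls over all genes were 838 to 983 with median-of-ratios size factors, library sizes without ribosomal and mitochondrial rows, or no count filter, and 734 and 724 with limma on log2(FPKM + 1) and log2(FPKM + 0.1). DESeq2 called 2116 genes and 19 members, among them all 10. Without saline 1 and DXZ 1 together there were 1332 and 17. Leaving out 1 library gave 1 to 1574 genes and 0 to 19 members. Members called stayed within 7 to 15 in the other settings, count minimums of 100 and 500 included. The replicate block gave 85 genes and 4 members, 3 of them among the 10. Libraries with the same replicate number correlated at 0.26, -0.09 and 0.23 in their deviations from the group means. Libraries with different numbers ranged from -0.46 to 0.43. With so few libraries these values cannot settle whether the numbers pair them, and saline 4 has no partner. The members' share of counts differed by 0.0163 to 0.0209 percentage points with 1 library left out, and by -0.0037 without Gm26917 and Gm1976, an alternative chosen after seeing the data. Of the 10 calls, the block ended those of Gm26917, Snhg6, Gm20300, Gm48558, C730027H18Rik, 3300005D01Rik and Gm6135, limma those of Snhg6 and 3300005D01Rik, and the fit without a count filter that of C730027H18Rik (adjusted p 0.0632). Among named members that were not called, the direction turned in 6: with 1 library left out, 1700020I14Rik ranged from -0.058 to 0.0079, 1810058I24Rik from -0.15 to 0.12, Snhg12 from -0.017 to 0.33, 2700046G09Rik from -0.13 to 0.011, Gm16755 from -0.25 to 0.76 and Gm26578 from -0.041 to 0.28. The replicate block gave -0.025 for 1810058I24Rik and -0.021 for Gm16755, and limma gave 1810058I24Rik -0.00095 and -0.0013. The cause was not tested. A member at the count minimum has a mean level under 3 CPM, so its fold change rests on few counts.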
